A study of Mus musculus with 10 samples.

Results

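The Rag GTPases and the proteins that feed into them tell mTORC1 whether nutrients are available, and the transcripts of this machinery were measured in kidneys of 5 Rragc+/+ and 5 Rragc S74N/+ mice aged 3 months, called +/+ and S74N/+ from here on. The genes were chosen by symbol from a fixed list of 37 that covers the Rag GTPases, Ragulator, the folliculin complex, GATOR1 and GATOR2, KICSTOR, amino acid sensors, mTORC1, Rheb and the TSC complex. Of these, 36 were found among the 13837 genes of the deposited table and all 36 passed the filter on low values, while Rragb was not analysed here. S74N/+ mice carry 1 germline copy of the S74N allele (labelled KI/+), a serine-to-asparagine substitution that activates RagC. The allele was made by Cas9 editing of blastocysts with a repair template that also held silent changes, and it is not limited to a tissue. The samples are whole kidneys, with 1 library per mouse, and the labels used here give no sex or feeding state.

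RagA or RagB pairs with RagC or RagD on the lysosomal surface, where Ragulator anchors the dimer. With amino acids at hand the dimer recruits mTORC1, which is then switched on by Rheb. GATOR1 turns the dimer off, GATOR2 opposes GATOR1, and sensors such as sestrins and CASTOR proteins report amino acid levels to them. Folliculin with its partners Fnip1 and Fnip2 acts on RagC and RagD and is needed for mTORC1 to phosphorylate the MiT/TFE transcription factors, whose known targets include Rragd, Flcn and Fnip genes. In kidney, RagD is expressed along the distal nephron, and loss of folliculin is known to cause cysts and tumors.

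The libraries are of the QuantSeq 3′ type, in which reads start near the poly(A) tail, so counts were not divided by transcript length and can be set side by side between genes. Values are normalized counts, that is reads divided by a size factor for the library. Recovered reads per library numbered 6501552 to 7856363 in +/+ and 6872310 to 7996087 in S74N/+ mice. Transcripts of the mitochondrial genome made up 24.5% to 30.1% of reads in +/+ and 23.9% to 27.1% in S74N/+ mice. Kidney markers were abundant, with Slc34a1 of the proximal tubule between 26565 and 33359.8 normalized counts in the 10 mice. Among the 10 mice, S74N/+ mouse 5 had the highest counts of Jchain (513) and Col1a1 (729) and the lowest of Umod (7760.0). In that genotype, mouse 1 had the highest count of the neutrophil gene S100a8 (161). Library codes fall into separate runs of numbers. The labels' codes ending in 38 to 40 belong to 2 +/+ and 1 S74N/+ mice, too few for a fit, and those ending in 53 to 66 to 3 +/+ and 4 S74N/+ mice.

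Rragd, Flcn and Fnip1 were lower and Lamtor5 was higher in S74N/+ kidneys, and the other 32 genes of the machinery did not pass the test. The test was limma on log2(normalized count + 1) over 13197 genes, adjusted by Benjamini-Hochberg and called under 0.05. It called 4 of the 36 genes (11.1%), against 3.69% of all genes tested. On recovered reads, edgeR called 3 of them (Rragd, Flcn and Fnip1), against 3.64% of all genes, and DESeq2 called 5 (the 4 genes and Rragc), against 4.91%. By direction, 3 genes (8.33%) were lower, against 2.02% of all genes, and 1 gene (2.78%) was higher, against 1.67%. The median log2 fold change was -0.04 over the 36 genes and 0.00046 over all genes tested. Values of +/+ and S74N/+ mice were fully separate in 5 of the 36 genes (13.9%), against 5.0% of all genes, and these were Rragd, Flcn, Fnip1, Castor2 and Slc38a9. The difference between these shares was not tested. Leaving out each mouse in turn gave from 1 to 4 called genes. The number was 1, Rragd, without +/+ mouse 3, 4 or 5. It was 2 without S74N/+ mouse 1, 2, 3 or 4, and 3 without S74N/+ mouse 5, where Rragd, Lamtor5 and Flcn passed.

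**Figure D1:**
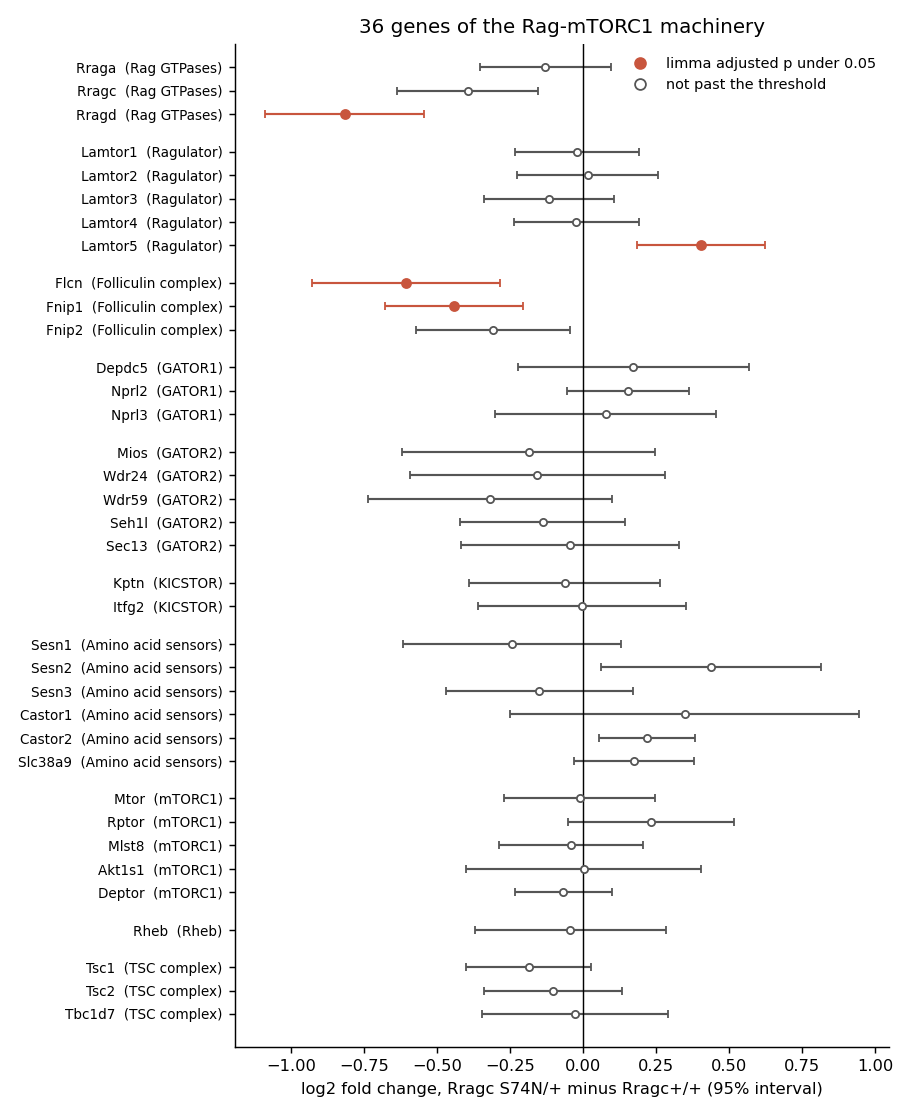
Log2 fold change (x axis, S74N/+ minus +/+) of the 36 genes of the machinery, grouped by complex on the y axis, with points for the limma estimate and bars for its 95% interval (5 mice per genotype). Filled points mark Rragd, Lamtor5, Flcn and Fnip1, which passed an adjusted p of 0.05, and the intervals of GATOR1, GATOR2, KICSTOR, Rheb, TSC and mTORC1 genes all include 0.

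Of the 3 Rag GTPase genes measured here, Rragd passed the limma test. Only the sequence around the edited codon is shown, since it is what separates the genotypes. In GRCm38 (GENCODE vM21), Rragc spans chr4:123917446-123936997 on the + strand, and codon 74 lies in exon 1 of 7, at chr4:123917753-123917755. The 30 coding bases below are the reference, with codon 74 of Rragc in capitals, beside the windows of Rragd and Rraga found by the best ungapped match of the encoded residues. Capitals there mark codon 75 of Rragd, at chr4:32995879-32995881 in exon 2 of 7, and codon 21 of Rraga, at chr4:86575979-86575981 in its only exon. The Rragd window has 24 of 30 bases in common with that of Rragc, and the Rraga window 12.
Rragc: ctccggcgcagcggcaaaTCCtccatccag
Rragd: ctcaggaggagcggcaagTCGtctatccag
Rraga: aagagcgggtcggggaagACCagcatgagg

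Rragc, the edited gene, had 347, 247, 244, 293 and 297 normalized counts in +/+ mice 1 to 5 and 199, 248, 214, 229 and 189 in S74N/+ mice 1 to 5. The ranges overlapped by little, since S74N/+ mouse 2 lay above +/+ mice 2 and 3, and all 5 S74N/+ mice were under the +/+ mean. Its log2 fold change was -0.40 (95% interval -0.64 to -0.15), with a limma adjusted p of 0.0678. That difference did not pass in limma or edgeR (adjusted p = 0.0572) and passed in DESeq2 on the recovered reads (adjusted p = 0.0312). Among the library codes ending in 53 to 66 the log2 fold change was -0.34 (limma adjusted p = 0.209). Reads from the 3′ end do not cover exon 1, so these counts check neither the allele nor the genotype labels, and transcripts of the 2 alleles were not told apart.

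Rragd, the paralog that can take the place of RagC in the dimer, gave the largest change of the machinery. It had 164, 154, 166, 173 and 174 normalized counts in +/+ mice 1 to 5 and 98.6, 104, 71.5, 86.0 and 115 in S74N/+ mice 1 to 5. Every S74N/+ kidney was under every +/+ kidney, with a gap from 115 to 154. Mean levels were 166 ± 8.04 (SD, n = 5) and 95 ± 16.8 (SD, n = 5), so that Rragd fell by 42.8%. Its log2 fold change was -0.82, with a standard error (SE) of 0.13, a 95% interval of -1.09 to -0.54 and a limma adjusted p of 0.000937. It passed each time a mouse was omitted (10 fits, -0.89 to -0.72) and in the 11 other alternatives, and was -0.88 among the library codes ending in 53 to 66 (limma adjusted p = 0.0139). Its gene spans chr4:32983037-33022180 on the + strand of GRCm38.

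Rraga, the GTPase that pairs with RagC or RagD, had 465, 422, 545, 589.6 and 533 normalized counts in +/+ mice 1 to 5. The S74N/+ mice had 395, 511, 467, 523 and 435, of which only mouse 1 lay outside the +/+ range, below it. The log2 fold change was -0.13, with a 95% interval from -0.35 to 0.10 (limma adjusted p = 0.639).

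The division of counts among the Rag genes was then described in each kidney, with no test. Rragd made up 32.1%, 38.4%, 40.4%, 37.1% and 37.0% of the Rragc and Rragd counts in +/+ mice 1 to 5 and 33.1%, 29.6%, 25.0%, 27.3% and 37.8% in S74N/+ mice. The means were 37.0% ± 3.05 (SD, n = 5) and 30.6% ± 5.05 (SD, n = 5), and the ranges overlapped. Rragc and Rragd together gave 401 to 511 normalized counts in +/+ and 286 to 352 in S74N/+ kidneys, ranges that did not meet. Set against Rraga, the sum gave a ratio of 0.751 to 1.10 in +/+ and 0.603 to 0.755 in S74N/+ kidneys, so that only the highest S74N/+ mouse reached the lowest +/+ mouse.

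**Figure D2:**
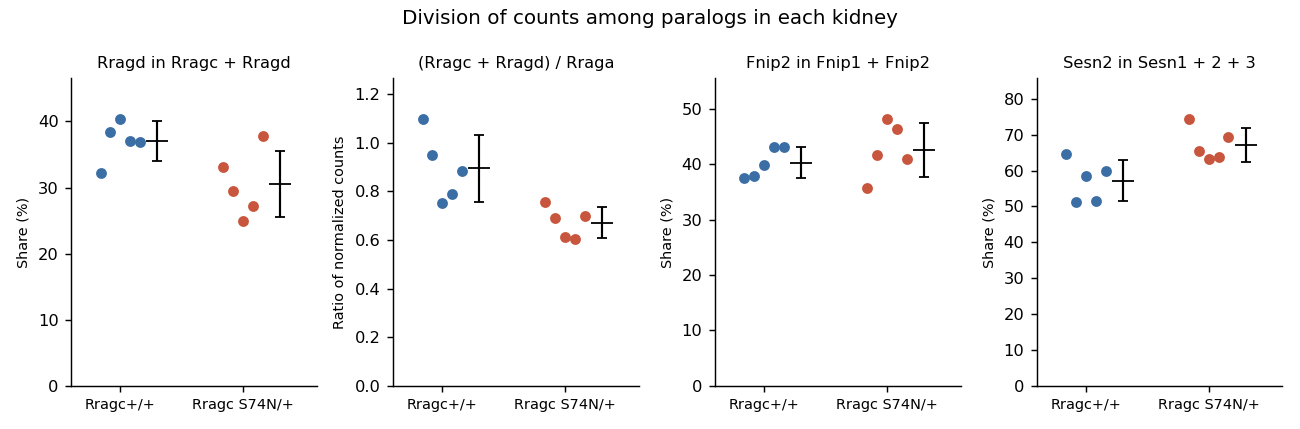
Share of Rragd in Rragc plus Rragd (%), ratio of Rragc plus Rragd to Rraga, share of Fnip2 in Fnip1 plus Fnip2 (%) and share of Sesn2 in the sestrins (%), with 1 point per kidney and black bars for mean ± SD (5 mice per genotype, y axes from 0). The ratio to Rraga has means of 0.895 in +/+ and 0.672 in S74N/+ kidneys, and the ranges touch.

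All 3 folliculin complex genes had a negative log2 fold change, and 2 of them fell past the threshold. Flcn, which encodes folliculin, had 70.3, 65.8, 89.6, 85.8 and 66.2 normalized counts in +/+ mice 1 to 5 and 38.9, 49.2, 56.7, 49.4 and 51.6 in S74N/+ mice 1 to 5. The highest S74N/+ kidney, mouse 3, was under the lowest +/+ kidney. Flcn (chr11:59791408-59810016, - strand of GRCm38) fell by 34.9%, and the difference of mean log2 values was -0.61 (SE 0.15, limma adjusted p = 0.0341). With the library code run as a term of the fit of all 10 mice, the value was -0.67 (limma adjusted p = 0.00904). The call did not hold among the library codes ending in 53 to 66, where the log2 fold change was -0.62 (limma adjusted p = 0.0871). It was also lost when any of 6 mice was omitted. These were +/+ mouse 3, 4 or 5, with adjusted p of 0.0913, 0.106 and 0.0518, or S74N/+ mouse 1, 2 or 4, with 0.0921, 0.0563 and 0.0624 (limma).

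Fnip1 encodes a partner that folliculin needs to act on the Rag dimer. It had 359.7, 427, 366, 374 and 357 normalized counts in +/+ mice 1 to 5 and 349, 279, 241, 299 and 229.6 in S74N/+ mice 1 to 5. The genotypes did not overlap, although S74N/+ mouse 1 came close to the lowest +/+ kidney. Fnip1 (chr11:54438199-54518235, + strand of GRCm38) fell by 25.8%, and the difference of mean log2 values was -0.44 (SE 0.11, limma adjusted p = 0.0354). Without a trend of the variance limma gave an adjusted p of 0.111. The value was -0.49 among the library codes ending in 53 to 66 (limma adjusted p = 0.0450). The call was lost without +/+ mouse 2, 3, 4 or 5 (limma adjusted p = 0.0858, 0.0585, 0.0816 and 0.0694) and without S74N/+ mouse 2, 3 or 5 (0.0586, 0.0759 and 0.0786).

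Fnip2, the other partner of folliculin, had 216, 261, 243, 284 and 271 normalized counts in +/+ mice 1 to 5 and 194, 199, 225, 259.9 and 159.6 in S74N/+ mice 1 to 5. The ranges overlapped and the log2 fold change was -0.31 (95% interval -0.57 to -0.05, limma adjusted p = 0.224). Fnip2 made up 40.4% ± 2.72 (SD, n = 5) of Fnip1 and Fnip2 counts in +/+ and 42.6% ± 4.94 (SD, n = 5) in S74N/+ kidneys. Summed over the 3 genes, the complex had 646 to 754 normalized counts in +/+ and 441 to 609 in S74N/+ kidneys, which did not overlap.

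Ragulator holds the Rag dimer at the lysosome, and of its 5 genes 1 passed, upward. Lamtor5 (chr3:107278858-107284082, + strand of GRCm38) had 833, 914, 623, 719 and 712 normalized counts in +/+ mice 1 to 5 and 1140.1, 903, 1066, 969.6 and 923 in S74N/+ mice 1 to 5. Only +/+ mouse 2 reached into the S74N/+ range. Mean levels were 760.3 ± 114 (SD, n = 5) and 1000.4 ± 100.1 (SD, n = 5), and the difference was 0.40 on the log2 scale (SE 0.10, limma adjusted p = 0.0387). The difference was 0.50 among the library codes ending in 53 to 66 (limma adjusted p = 0.0154). With the library code run as a term of the fit of all 10 mice, it was 0.46 (limma adjusted p = 0.00144). The call was not made by edgeR (adjusted p = 0.0502), after quantile normalization (limma adjusted p = 0.0604) or by limma without a trend of the variance (0.136). It was also lost without +/+ mouse 3, 4 or 5 (limma adjusted p = 0.0943, 0.105 and 0.114) and without S74N/+ mouse 1, 3 or 4 (0.106, 0.0747 and 0.0674).

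None of the other 4 Ragulator genes passed. Lamtor1, which carries the lipid anchor of the complex, had 785 ± 86.7 (SD, n = 5) normalized counts in +/+ and 775 ± 98.8 (SD, n = 5) in S74N/+ kidneys. The log2 fold changes of Lamtor1, Lamtor2, Lamtor3 and Lamtor4 were -0.02, 0.01, -0.12 and -0.02, with limma adjusted p between 0.680 and 0.971. Their 95% intervals lay between -0.34 and 0.26.

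**Figure D3:**
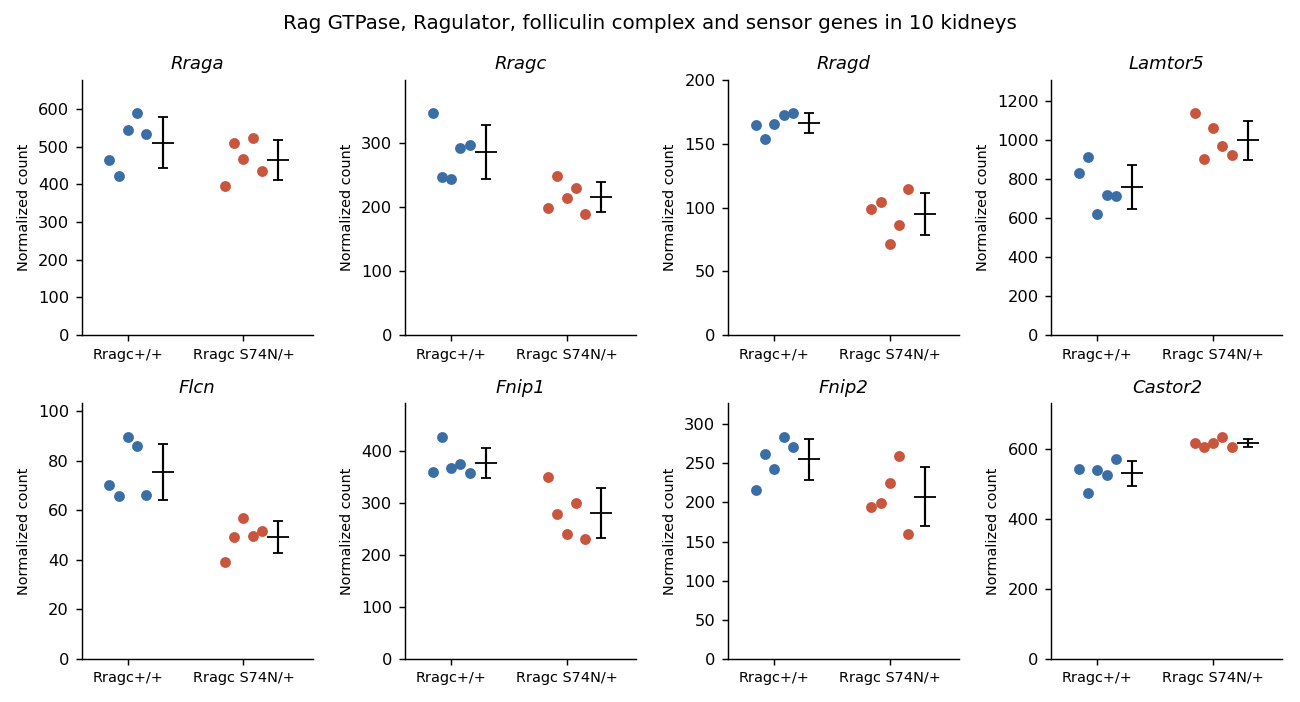
Normalized counts (y axes from 0) of Rraga, Rragc, Rragd, Lamtor5, Flcn, Fnip1, Fnip2 and Castor2, with 1 point per kidney in replicate order and black bars for mean ± SD (5 +/+ and 5 S74N/+ mice). Rragd is 71.5 to 115 in S74N/+ and 154 to 174 in +/+ kidneys, Flcn, Fnip1 and Castor2 are also separated, and the other 4 genes overlap.

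Markers of tubule segments also differed between these kidneys and are given beside Rragd, Flcn and Fnip1. In whole kidneys, fewer cells of a type and less RNA per cell cannot be told apart. Of 6 markers of the distal convoluted tubule, 5 fell and Calb1 did not pass, with a median log2 fold change of -1.11. Slc12a3, the thiazide-sensitive cotransporter, had a log2 fold change of -1.20 and Pvalb one of -3.06 (limma adjusted p = 2.61e-07 and 5.08e-09). The 6 markers summed to 7730.1 to 9114 normalized counts in +/+ and 5102 to 6298.5 in S74N/+ kidneys.

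Of 5 markers of the thick ascending limb, Umod (-0.999 on the log2 scale, limma adjusted p = 0.000198) and Kcnj1 (-0.80, adjusted p = 0.0156) fell and Cldn16 rose (0.82, adjusted p = 0.00280), while Slc12a1, the main cotransporter of that segment, did not pass (-0.22, adjusted p = 0.438). These 5 summed to 28710.4 to 37556 normalized counts in +/+ and 13254 to 21719 in S74N/+ kidneys. Umod made up 90.3% of the drop in the mean sum, and the 4 genes other than Umod summed to 8302 to 9557 in +/+ and 5494 to 8343 in S74N/+ kidneys, which overlapped. In the proximal tubule list of 7 genes, Slc22a6 rose (0.52 on the log2 scale, limma adjusted p = 0.00105). Slc5a2 (-0.93, limma adjusted p = 4.64e-05) and Slc5a12 (-0.95, limma adjusted p = 0.00177) fell, with every S74N/+ kidney under every +/+ kidney. The rest of that list did not pass. The 7 genes summed to 45694 to 50386 normalized counts in +/+ and 46646 to 57287 in S74N/+ kidneys, which overlapped. Of the intercalated cell list 2 of 5 fell, and in the podocyte list 1 of 5 rose. The 5 intercalated cell genes summed to 1293.5 to 1366.5 normalized counts in +/+ and 1017.4 to 1232.8 in S74N/+ kidneys, which did not meet. All 5 principal cell genes had a positive log2 fold change (median 0.54), of which limma and edgeR called Avpr2 and DESeq2 called Aqp2, Aqp3, Avpr2 and Scnn1g. Those 5 summed to 852 to 1107 normalized counts in +/+ and 1255 to 2102 in S74N/+ kidneys, ranges that did not meet. Of the B lineage and neutrophil lists, 1 of 5 and 2 of 4 genes were in the table. None of these, nor of the 5 endothelial, 6 macrophage or 5 fibroblast genes, passed by limma, edgeR or DESeq2. At an unadjusted limma p under 0.05 there were 1 endothelial, 2 macrophage, 1 B lineage, 0 neutrophil and 0 fibroblast genes. The part of segment markers in the values of Rragd, Flcn, Fnip1 and Lamtor5 was not tested.

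**Figure D4:**
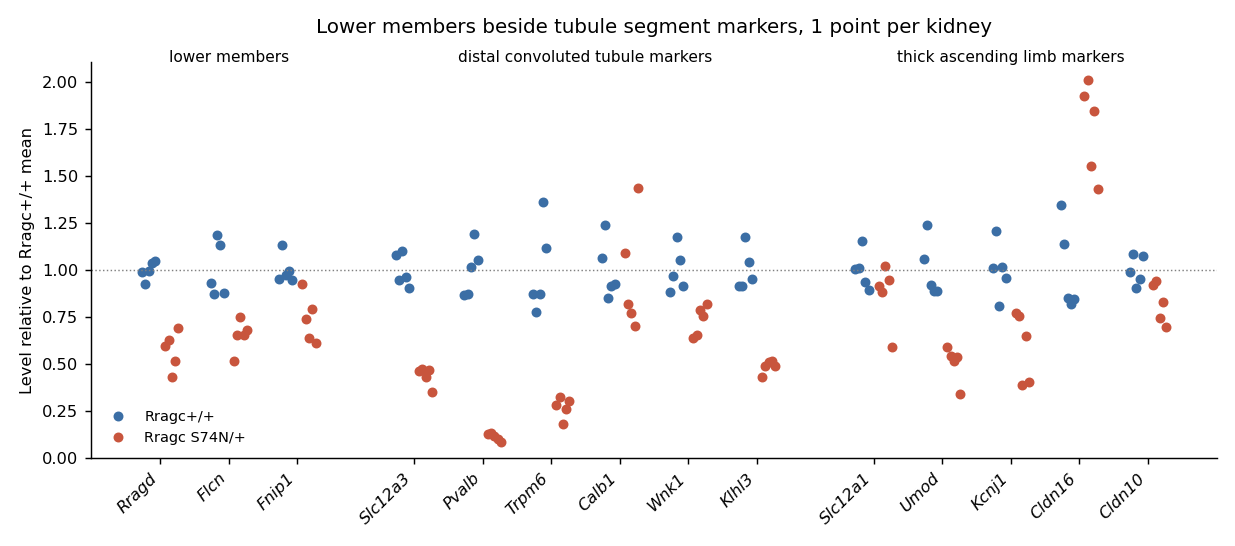
Level in each kidney relative to the +/+ mean of the gene (y axis, linear from 0) for Rragd, Flcn and Fnip1, for 6 markers of the distal convoluted tubule and for 5 markers of the thick ascending limb, with 1 point per mouse (5 per genotype). Slc12a3, Pvalb, Trpm6, Wnk1 and Klhl3 are lower in every S74N/+ kidney, whereas Calb1 and Slc12a1 overlap and Cldn16 is higher.

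GATOR1 switches the Rag dimer off, and its 3 genes had positive log2 fold changes that did not pass. Nprl2 had 192 ± 11.3 (SD, n = 5) normalized counts in +/+ and 214 ± 19.5 (SD, n = 5) in S74N/+ kidneys, or 0.15 on the log2 scale (limma adjusted p = 0.521), with all 5 S74N/+ mice above the +/+ mean. Depdc5 and Nprl3 were scarce, at 36.01 ± 6.97 and 43.0 ± 10.1 (SD, n = 5) in +/+ kidneys, and their log2 fold changes were 0.17 and 0.08.

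GATOR2, the opponent of GATOR1, had 5 genes with log2 fold changes between -0.32 and -0.04, none past the threshold (lowest limma adjusted p = 0.498). Wdr59 was the furthest from 0, at 42.1 ± 8.28 (SD, n = 5) in +/+ and 33.5 ± 6.44 (SD, n = 5) in S74N/+ kidneys, with a 95% interval from -0.74 to 0.10. Sec13 and Seh1l, which also serve in the coats of vesicles and the nuclear pore, had values of -0.04 and -0.14. Mios and Wdr24 had -0.19 and -0.16. Kptn and Itfg2 of KICSTOR, the scaffold that brings GATOR1 to the lysosome, had values of -0.06 and -0.0043 with limma adjusted p of 0.899 and 0.995.

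Amino acid sensors had 4 genes with a positive and 2 with a negative log2 fold change, and none passed. Castor2, of the arginine sensor family, had 543, 474, 541, 527 and 571 normalized counts in +/+ mice 1 to 5 and 618, 606, 619, 636 and 607 in S74N/+ mice 1 to 5. The genotypes did not overlap, the log2 fold change was 0.22 (95% interval 0.05 to 0.38), and the limma adjusted p was 0.161. The S74N/+ kidneys were close together, with an SD of 11.95 against 35.8 in +/+ kidneys. Castor1 was far scarcer, at 8.89 to 19.3 normalized counts in +/+ and 13.6 to 25.1 in S74N/+ kidneys, and was the gene of the machinery with the lowest counts.

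Slc38a9, the lysosomal arginine transporter that signals to the Rag GTPases, ranged from 137 to 157 normalized counts in +/+ and from 160.3 to 175 in S74N/+ kidneys. These ranges were separate by a narrow gap, with a log2 fold change of 0.17 (95% interval -0.03 to 0.38, limma adjusted p = 0.430).

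Sestrins bind GATOR2 when leucine is low and are also induced by stress. Sesn2 had 228, 144, 183, 175 and 214 normalized counts in +/+ mice 1 to 5 and 333, 277, 179, 184 and 339.6 in S74N/+ mice 1 to 5. S74N/+ mice 1, 2 and 5 were above every +/+ mouse, and mice 3 and 4 were inside that range. Its log2 fold change of 0.44 was among the largest of the machinery, but the 95% interval ran from 0.06 to 0.82 and the limma adjusted p was 0.231. Sesn1 and Sesn3 had values of -0.24 and -0.15. Sesn2 made up 51.3% to 64.6% of the sestrin counts in +/+ and 63.2% to 74.5% in S74N/+ kidneys, given as a description.

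Of the mTORC1 genes themselves 0 of 5 passed by limma, edgeR or DESeq2, and 0 had an unadjusted limma p under 0.05. Mtor, the kinase, had 1073 ± 160.3 (SD, n = 5) normalized counts in +/+ and 1067 ± 176 (SD, n = 5) in S74N/+ kidneys, and the 95% interval of its log2 fold change was -0.27 to 0.25. Deptor, an inhibitor of mTOR, was the most abundant gene of the machinery, at 1662 ± 133 and 1584.0 ± 92.9 normalized counts (SD, n = 5), with an interval of -0.23 to 0.10. Rptor, the subunit that binds the Rag dimer, had 96.5 ± 3.54 and 115 ± 20.5 (SD, n = 5), or 0.23 on the log2 scale (limma adjusted p = 0.454). Its values ran from 82.7 to 135 in S74N/+ and from 91.3 to 101 in +/+ kidneys. Mlst8 and Akt1s1, which encodes PRAS40, had log2 fold changes of -0.04 and 0.0025.

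Rheb, the GTPase that switches mTORC1 on, had 164 to 277 normalized counts in +/+ and 188 to 285 in S74N/+ kidneys (log2 fold change -0.04, 95% interval -0.37 to 0.28). The TSC complex turns Rheb off. Tsc1, Tsc2 and Tbc1d7 had log2 fold changes of -0.19, -0.10 and -0.03, none of which passed (lowest limma adjusted p = 0.415).

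The precision of these kidneys set how small a difference could be seen. Among the 32 genes that did not pass, 22 had a 95% interval inside -0.5 to 0.5 on the log2 scale. The half-width of the interval was 0.28 at the median, 0.17 for the narrowest, that of Castor2, and 0.60 for the widest, that of Castor1. Differences within such a half-width were not detectable with 5 mice per genotype, and the call after adjustment needed more than the half-width. Of the 36 genes, 8 had an unadjusted limma p under 0.05 and 4 were called. The share of all genes at that unadjusted threshold is not given here, so the 8 are a description only. The intervals of Rragc, Fnip2, Sesn2 and Castor2 left out 0, yet these genes were not called. A miss of the threshold does not show equal levels.

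Counts were also summed over the genes of a complex, as a description. The Rag GTPases measured here had 962 ± 86.6 (SD, n = 5) normalized counts in +/+ and 777 ± 71.4 (SD, n = 5) in S74N/+ kidneys. Ragulator had 2570.3 ± 205 and 2783 ± 213, GATOR1 271 ± 15.8 and 299.6 ± 19.4, and the sensors 1025 ± 66.1 and 1192 ± 81.1 (SD, n = 5 each). GATOR2 had 533 ± 50.8 and 494 ± 75.8, TSC 519.9 ± 28.3 and 474 ± 47.2, and mTORC1 2978 ± 136 and 2909.6 ± 144 (SD, n = 5 each). The ranges of these 7 sums overlapped, those of the sensors only between 1099 and 1103 normalized counts.

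Other genes of the pathway were taken from a list of 53, of which 51 were matched in the table by symbol or RefSeq synonym, and 0 passed by limma or edgeR. At an unadjusted p under 0.05 there were 6 by limma and 6 by edgeR, with no share of all genes at that threshold given here. DESeq2 called 1, Ddit4l, an inhibitor of mTORC1 signaling, whose limma log2 fold change was 0.43 (adjusted p = 0.0686). The mTORC2 genes had log2 fold changes between -0.43 and -0.17. Those of genes for mTORC1 outputs, such as Rps6kb1 (0.09) and Eif4ebp1 (-0.21), lay between -0.27 and 0.23. These are transcript levels, and phosphorylation of the proteins by mTORC1 was not measured here. Among the MiT/TFE factors, Tfeb had 75.9 ± 17.7 (SD, n = 5) normalized counts in +/+ and 71.3 ± 7.56 (SD, n = 5) in S74N/+ kidneys. Mitf had 265 ± 30.03 and 209 ± 23.1 (SD, n = 5), or -0.34 on the log2 scale (limma adjusted p = 0.114). Mitf and Arf5 passed once the library code run was a term of the fit.

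MiT/TFE factors bind DNA elements that hold CACGTG, so promoters of the machinery were searched for it. RefSeq windows of 300 bases, from 250 before to 50 after each start in GRCm38.p6, were at hand for 32 of the 36 genes, and not for Deptor, Lamtor3, Seh1l and Wdr24. CACGTG, which reads the same on both strands, was in the windows of 6 of the 32 genes (18.8%), against 8.09% of the 27025 genes with a window. The longer form TCACGTG or CACGTGA, which contains it and covers both strands, was in 5 genes (15.6%), against 4.29%. That background took every gene with a window, whether or not it was expressed in kidney, unlike the genes of the machinery. The difference between these shares was not tested. The 6 genes were Rragc, Fnip1, Lamtor1, Lamtor4, Rheb and Tbc1d7. The 30 bases around each match are shown 5′ to 3′ on the strand of the gene because they set called and uncalled genes side by side, with CACGTG in capitals.
Rragc, 112 bases before the start, chr4:123917309-123917338, + strand: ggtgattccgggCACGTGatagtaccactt
Fnip1, 75 bases before the start, chr11:54438092-54438121, + strand: tcagtttgctgcCACGTGatacggctcgtc
Lamtor1, 68 bases before the start, chr7:101905757-101905786, + strand: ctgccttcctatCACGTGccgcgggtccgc
Lamtor4, 120 bases before the start, chr5:138255350-138255379, + strand: gcagaaagttaaCACGTGaacagcttttca
Lamtor4, 104 bases before the start, chr5:138255366-138255395, + strand: tgaacagcttttCACGTGtaaaccaaacca
Rheb, 96 bases before the start, chr5:24842440-24842469, - strand: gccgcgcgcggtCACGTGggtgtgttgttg
Tbc1d7, 53 bases before the start, chr13:43171537-43171566, - strand: ccggttaacatcCACGTGtgggtgggactc

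Of these 6 genes, Fnip1 was called and lower, Rragc had a log2 fold change of -0.40 that did not pass in limma, and Lamtor1, Lamtor4, Rheb and Tbc1d7 had log2 fold changes between -0.04 and -0.02. The windows of Rragd, Flcn and Lamtor5 did not hold these letters, which says nothing of sites elsewhere in those genes. The matches are a description of the windows, and binding was not measured here.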

How the data were processed

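The authors made QuantSeq 3′ libraries, aligned reads to GRCm39 with TopHat2 2.0.10 (3 mismatches and multiple hits allowed), counted them per gene with HTSeq 0.6.1 using strand on GENCODE vM26, and deposited a signal per gene, the count divided by a size factor of the library. Versions are those of the submitters' processing notes. Titles tied each of the 10 value columns to a kidney, with 0 left over. Every value was a whole number of reads (tolerance 0.01) after division by the step of its library. Replicates of a genotype differed by more than sampling noise (lowest chi-square per degree of freedom 2.15). Pairs of +/+ mice gave 2.15 to 6.55 within a run of library codes and 8.64 to 18.7 between runs. For S74N/+ mice these were 4.72 to 12.6 and 9.77 to 13.6, which overlap. With the run as a term of the fit, limma called 832 of all genes tested, against 487 without it. The part of the run in these values was not tested.

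Log2(value + 1) was tested with limma 3.58.1 in R 4.3.3, two-sided, with a trend and no covariate, in the 13197 genes with at least 10 normalized counts in at least 5 mice. A fold change on this scale understates that of low genes. Alternatives were pseudocounts of 0.5 and 5, other filters, TMM, quantile normalization, edgeR 4.0.16 and DESeq2 1.42.0 on recovered reads, the run of library codes, and leaving out each mouse. With 5 mice a group, p-values cover the spread between these mice. The genes, lists and alternatives were chosen with earlier results of these data known, so no p was adjusted over a list alone. Every member is given by value or count, with values per mouse for called genes and the Rag GTPases. Sequences are from RefSeq promoter tables and GENCODE vM21 transcripts, both on GRCm38, and no coordinates were converted. Figures used matplotlib 3.10.9.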

Additional observations from a re-analysis of the deposited data

Results flagged for a closer look

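Within the 5 mice of a genotype, 6 values of the 36 genes stood far from the other 4, where chance gives about 1 in 20 of the 72 groups examined. Lamtor4 had 745 normalized counts in S74N/+ mouse 3 against 536 in the next highest mouse, a gap of 0.938 of the whole range. Sec13 had 141 in +/+ mouse 3 against 236 in the next lowest (0.923), and Rheb had 164 in that mouse against 252 (0.780). Nprl3 had 60.9 in +/+ mouse 5 against 40.7 (0.825), Tsc1 had 240.1 in +/+ mouse 1 against 271 (0.757), and Fnip1 had 427 in +/+ mouse 2 against 374 (0.751). Of these genes only Fnip1 was called, and without that mouse its limma adjusted p was 0.0858.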

How the results depend on the processing

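The count of 4 called genes was 2 with limma without a trend, and from 1 to 4 when a mouse was left out. Over all genes tested, the main test called 487, limma without a trend 291, and fits without a mouse 295 to 466. The 1 higher gene, Lamtor5, became 0 with quantile normalization, limma without a trend and edgeR (0 in each), with 0 to 1 when a mouse was left out, and the 3 lower genes became 1 to 3. Genes without overlap numbered 5 with TMM and 5 to 8 when a mouse was left out, though omitting a mouse cannot lower that number. No share of all genes is given for these counts. The pathway list had 1 call with DESeq2, 2 with the covariate for library codes, 1 (Ulk1) among codes ending in 53 to 66, and 0 to 1 when a mouse was left out. Rragd was called in all 21 alternative fits. No sign changed in 24 of the 36 genes, and genes with a change had a log2 fold change of at most 0.19 in size. With the covariate, signs turned for Lamtor1 (0.017), Sec13 (0.017) and Mtor (0.023). Among codes ending in 53 to 66 they turned for Lamtor4 (0.0095), Nprl3 (-0.043), Mios (0.062), Itfg2 (0.23), Mtor (0.15) and Rheb (0.027). Itfg2 turned with quantile normalization (0.012), edgeR (0.0059) and DESeq2 (0.012), and Akt1s1 with TMM (-0.0031), edgeR (-0.0080) and DESeq2 (-0.0039). Leaving out a mouse gave -0.075 to 0.047 for Lamtor1, -0.046 to 0.089 for Lamtor2, -0.12 to 0.0049 for Lamtor4, -0.0052 to 0.21 for Nprl3, -0.20 to 0.063 for Sec13, -0.11 to 0.12 for Itfg2, -0.084 to 0.092 for Mtor, -0.079 to 0.0016 for Mlst8, -0.11 to 0.10 for Akt1s1, -0.18 to 0.035 for Rheb and -0.10 to 0.032 for Tbc1d7. The cause was not tested. A mean of at least 50 left 7 of the 36 genes out of the fit. No paired analysis was possible because the labels pair no mice across genotypes.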

Other observations

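Sec13, listed here under GATOR2, and Rheb were lowest in the same 3 kidneys. +/+ mouse 3, S74N/+ mouse 5 and S74N/+ mouse 3 had 141, 155 and 158 normalized counts of Sec13 and 164, 187.8 and 188.1 of Rheb. In the other 7 kidneys the counts were 236 to 260.2 for Sec13 and 245 to 285 for Rheb. The genes were chosen after their values were seen, the low kidneys belong to both genotypes, and no test was run.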
